A study of Mus musculus with 27 samples.

Results

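The amino acid transporter genes described here are 62 genes of 7 solute carrier families, chosen by gene name alone from the 21850 genes of the deposited table. By family they are 7 Slc1 genes, 2 Slc3 genes, 21 Slc6 genes, 14 Slc7 genes, 4 Slc36 genes, 11 Slc38 genes and 3 Slc43 genes. Their RNA was counted by bulk RNA-seq in 27 mouse liver libraries, 3 in each of 9 conditions, all from adult C57BL/6 mice aged 8 to 25 weeks and labelled wild type except as said below. Freshly isolated hepatocytes were the uncultured reference. HepOrgs, which are organoids grown from primary hepatocytes in Matrigel, were used at passage 2. They either stayed in HM-Wnt, the medium for expansion, or were switched to the minimal medium MM, and were collected after 7 or 14 days (1 week or 2 weeks). Both media held the same basal medium, Wnt conditioned medium and a ROCK inhibitor, and HM-Wnt also held gastrin, EGF, HGF, FGF7, FGF10, R-spondin 1, nicotinamide, the GSK3 inhibitor CHIR and the TGFβ receptor inhibitor A83-01. Periportal assembloids were made in MM from 1000 cholangiocytes, 10 HepOrgs and either 250 portal mesenchymal cells (homeostatic) or 2500 portal mesenchymal cells (fibrotic-like). They were collected after 7 or 18 days (1 week or 2.5 weeks). Per the study's methods, the cholangiocytes and mesenchymal cells carried fluorescent reporters and had been expanded in culture.

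Amino acid carriers work as parts of one circuit. Uptake carriers that use the sodium gradient, such as the Slc1, Slc6 and Slc38 proteins, fill the cell with glutamine, alanine, glutamate, glycine or taurine. Obligatory exchangers of the Slc7 family then trade the stored amino acids for leucine, other large neutral amino acids or cationic amino acids. Those exchangers reach the cell surface only in a disulfide-linked pair with a heavy chain of the Slc3 family, while the cationic carriers of the Slc7 family work alone. In liver, the system N carrier SNAT3 moves glutamine in and out of hepatocytes beside the urea cycle, and system A carriers take up alanine for glucose synthesis. Not every gene in these families carries amino acids. The Slc6 family also holds the creatine, noradrenaline, dopamine and serotonin transporters, and Slc43a3 encodes a purine nucleobase transporter.

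Total counts per library ranged from 30289364 to 65348596 with a median of 43727965. Levels below are normalised CPM, counts scaled by TMM over all 27 libraries to a common library size, and are given for replicates 1, 2 and 3 in that order (n = 3 in each condition). The labels do not say whether replicates came from separate animals or cultures, so p-values measure the spread between these libraries, which may be technical. Hepatocyte replicate 3 is titled wild type and carries a heterozygous MDR2 label, and the title was followed. The summed level of 9 hepatocyte markers was 63331 to 99519.8 CPM in hepatocytes and 12613 to 46262 in HepOrgs, and that of 6 cholangiocyte markers was 11.6 to 143 and 3532 to 15478. Sums of 8 endothelial markers (57.95 to 289 against 0.9304 to 13.6) and of 10 immune markers (56.6 to 601 against 7.54 to 789.8) were highest, among hepatocytes, in replicate 2. Because these are bulk samples, fewer cells of a type and less RNA per cell cannot be told apart. One library stood apart. Homeostatic replicate 2 at 1 week had reads on 8465 genes, where the others had 14016 to 16018, and its hepatocyte marker sum was 914 CPM beside 28214 and 15639 in its group. Its Apob was at 0.1 CPM. The cholangiocyte marker sum was 7885 CPM beside 7127 and 7312, and the immune marker sum 0.597 beside 3.55 and 5.26. The endothelial marker sum was 247 CPM beside 4.13 and 18.6, and the sum of 9 mesenchyme markers 981 beside 150 and 331. Assembloid results are therefore given with and without it.

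Of the 62 transporter genes, 36 reached 1 CPM in at least 3 libraries. In each library 26 to 37 reached that level, apart from 15 in the homeostatic library that stood apart. The other 26 were rarely read. Slc6a7, the brain proline transporter, had no read in any library. Total counts over all 27 libraries were 1 for Slc7a4 and Slc7a12, 2 for Slc6a18, 6 for Slc6a11, 9 for Slc6a5 and Slc38a8, and 11 for Slc36a3. Slc7a14 had 24 counts, Slc1a7 had 30, Slc7a13 had 39, Slc7a10 had 45, Slc6a15 had 48, Slc38a5 had 51 and Slc6a21 had 55. Several of these are known for expression in brain or kidney. The table also lists Hpd and Oat, enzymes of liver, at 0 in every library, so a 0 need not mean that a gene was silent. Between 63 and 466 counts fell on Slc6a17 (63), Slc6a14 (81), Slc6a3 (97), Slc1a3 (120), Slc1a6 (146), Slc38a11 (162), Slc7a9 (180), Slc6a4 (214), Slc36a2 (366) and Slc6a20b (466). Slc6a20b lies 2.204 kb from its close copy Slc6a20a (0 to 1.76 CPM), so how their reads divide is uncertain. Slc6a19, the intestinal and renal carrier of neutral amino acids, was at 0 to 1.66 CPM.

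Hepatocytes spent a larger part of their reads on these genes than cultured cells did. The 62 genes took 0.378 to 0.533% of all counts in hepatocytes and 0.116 to 0.256% in the 24 other libraries, with no overlap. To compare genes with one another, TPM was used, which divides by a gene length. On that scale 2 carriers of the Slc38 family made up most of the hepatocyte pool, Slc38a3 (SNAT3) with 57.7 ± 0.985% and Slc38a4 (SNAT4) with 13.7 ± 1.49% of the summed TPM (mean ± SD, n = 3). The heavy chain Slc3a2 (CD98hc) had 2.77 ± 0.599% there. In HM-Wnt HepOrgs at 1 week the order was different, with Slc3a2 at 37.1 ± 7.25%, Slc38a3 at 20.1 ± 7.93% and the starvation-induced system A carrier Slc38a2 (SNAT2) at 15.7 ± 1.04%. Slc3a2 held 34.2 ± 0.924% in HM-Wnt at 2 weeks, 34.05 ± 6.399% in MM at 1 week and 37.8 ± 3.84% at 2 weeks, in each case the largest share. Slc38a4 fell below 1% of the pool in HM-Wnt, with 0.0503 ± 0.0375% at 1 week. The lengths behind the deposited TPM matter here, since for 53 of the 62 genes they differ by less than 5% from the span of the gene with its introns. With exonic lengths, Slc38a4 came first in hepatocytes at 33.9 ± 2.29% and Slc38a3 second at 29.8 ± 2.12%, while Slc3a2 stayed first in HM-Wnt at 1 week with 38.4 ± 6.21%. The deposited length of Slc38a2 was only 1.27 times its exonic length, the least of the 62 genes (median 5.91), which favours it on the TPM scale. With exonic lengths Slc38a2 stood below Slc1a4 in HM-Wnt at 1 week.

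**Figure D1:**
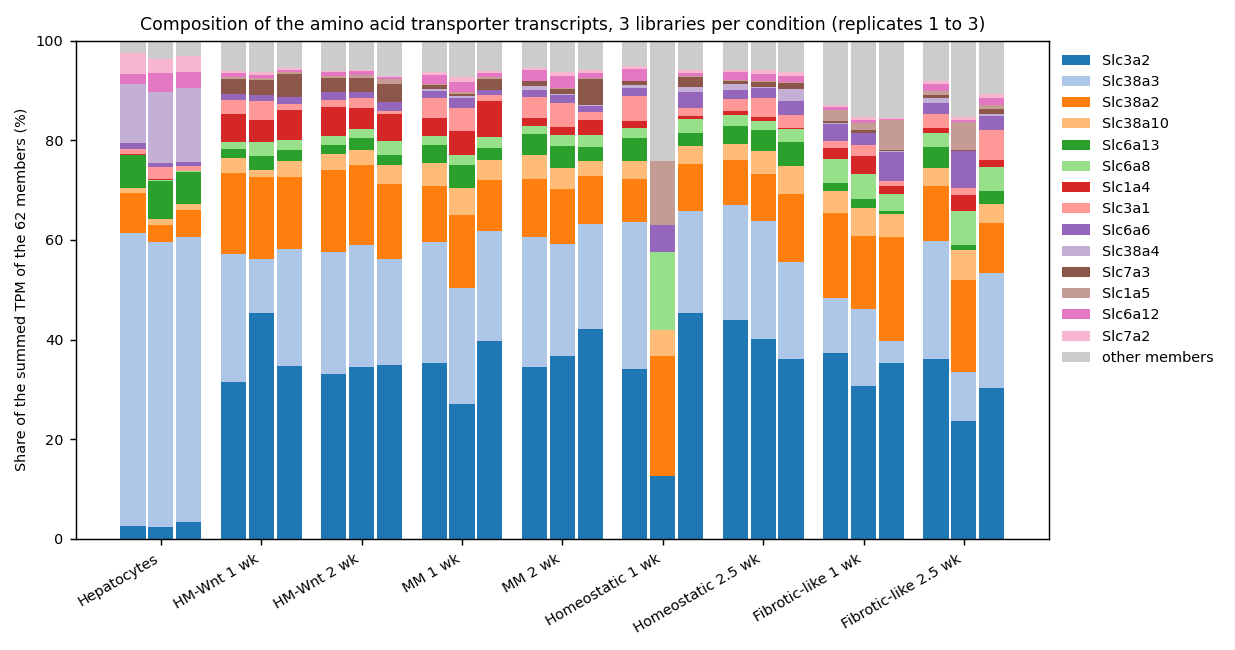
Stacked bars give the share (%) of the summed TPM of the 62 genes held by single genes, 1 bar per library in replicate order, with the rest in grey. Slc38a3 (light blue) and Slc38a4 (lilac) fill most of the hepatocyte bars, Slc3a2 (dark blue) takes the largest share in the HepOrg bars, and homeostatic replicate 2 at 1 week is unlike every other bar.

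The comparison of HepOrgs with hepatocytes asked how far cultured hepatocytes keep the expression of the cells they came from. Of the 62 genes, 37 had enough counts to be tested. In HM-Wnt at 1 week, 22 of the 37 passed the threshold (edgeR adjusted p under 0.05), 11 higher and 11 lower, where 49.7% of all 13405 tested genes did (24.9% higher and 24.8% lower). At 2 weeks 25 passed, 12 higher and 13 lower, beside 51.8% of all genes (26.1% and 25.7%). In MM, 21 passed at 1 week, 10 higher and 11 lower, beside 42.8% of all genes (21.5% and 21.3%). At 2 weeks 20 passed, 10 in each direction, beside 39.7% (19.7% and 20%). Counts of transporter genes were thus somewhat above the share for all genes, and these families were not tested as a group. Their median log2 fold changes were -0.08 and -0.13 in HM-Wnt at 1 and 2 weeks and -0.19 and -0.35 in MM, where all genes had medians of 0.02, 0.03, 0.00 and -0.01. With Slc7a3, which has no read in hepatocytes, at its lower bound, these medians are the same. On the log2(TPM + 1) scale the median of all genes shifted up by 0.40 and 0.68 for HM-Wnt and by 0.47 and 0.40 for MM, and the calls divided into 11 higher and 7 lower, 14 and 7, 13 and 7, and 11 and 8. The 4 comparisons share the same 3 hepatocyte libraries. Over all 4, 28 of the 37 genes passed at least once. Of these, 9 were higher in all 4, 7 were lower in all 4, and 12 passed in 1 to 3 of them.

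**Figure D2:**
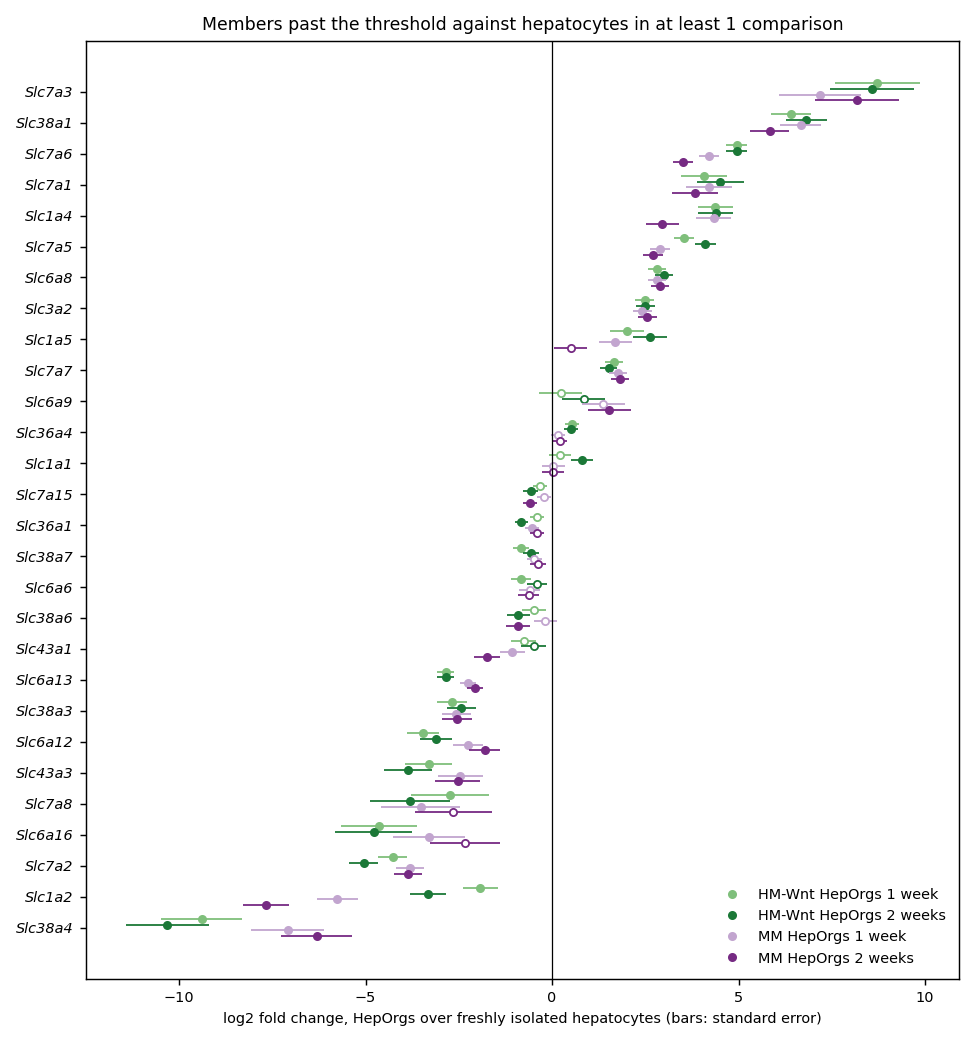
Points are log2 fold changes of HepOrgs over freshly isolated hepatocytes (horizontal axis) in the 4 comparisons for the 28 genes past the threshold at least once, with bars for the standard error. Filled points passed the threshold and open points did not. Genes run from Slc38a4, near -10 in HM-Wnt, up to Slc38a1 and Slc7a3, and the fitted value of Slc7a3 stands against libraries without a read.

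The genes lower in all 4 comparisons were carriers of glutamine, alanine, cationic amino acids, GABA and betaine, glutamate and nucleobases. Slc38a4 (SNAT4, ENSMUSG00000022464) encodes a system A carrier known for its expression in liver. Slc38a4 was at 1976, 1674 and 1659 CPM in hepatocytes, at 3.46, 3.87 and 0.756 in HM-Wnt at 1 week and at 0.807, 2.31 and 0.992 at 2 weeks. MM values of Slc38a4 were 19.3, 16.7 and 2.71 at 1 week and 42.3, 16.8 and 6.11 at 2 weeks. All 12 HepOrg libraries lay far below the 3 hepatocyte libraries. Its log2 fold changes were -9.40 and -10.32 in HM-Wnt and -7.10 and -6.31 in MM (standard errors 0.95 to 1.12, edgeR adjusted p 8.78e-06 to 1.92e-04). No other transporter gene fell as far in HM-Wnt or in MM at 1 week, and in MM at 2 weeks Slc1a2 fell further. Slc38a3 encodes SNAT3, the system N carrier that moves glutamine in both directions. Slc38a3 was at 3005, 2075 and 1985 CPM in hepatocytes, at 532, 151 and 447 in HM-Wnt at 1 week and at 512, 493 and 339 at 2 weeks. MM values of Slc38a3 were 428, 316 and 460.2 at 1 week and 461, 360.4 and 374 at 2 weeks. All 12 HepOrg libraries were below the lowest hepatocyte library. The log2 fold changes were -2.69 and -2.43 in HM-Wnt and -2.57 and -2.55 in MM (standard errors 0.39, edgeR adjusted p 1.05e-04 to 2.23e-04). Slc7a2 (CAT2) is the cationic amino acid carrier of liver, which supplies arginine. Slc7a2 was at 690.2, 323 and 368 CPM in hepatocytes, at 30.9, 25.9 and 16.98 in HM-Wnt at 1 week and at 12.96, 17.8 and 11.8 at 2 weeks. MM values of Slc7a2 were 35.6, 40.5 and 22.8 at 1 week and 29.5, 39.7 and 23.7 at 2 weeks. Again the groups did not overlap, and the log2 fold changes were -4.27 and -5.05 in HM-Wnt and -3.81 and -3.88 in MM (standard errors 0.37 to 0.40, edgeR adjusted p 6.23e-07 to 5.76e-06).

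A pair of Slc6 genes for GABA-like solutes fell together. Slc6a13 (GAT2) carries GABA and taurine. Slc6a13 was at 662, 539 and 443 CPM in hepatocytes, at 75.2, 78.2 and 81.2 in HM-Wnt at 1 week and at 80.3, 91.1 and 61.6 at 2 weeks. MM values of Slc6a13 were 127, 119.8 and 99.4 at 1 week and 143, 141 and 102 at 2 weeks. HepOrgs were below hepatocytes in every library, with log2 fold changes of -2.86 and -2.86 in HM-Wnt and -2.26 and -2.08 in MM (standard errors 0.21 to 0.22, edgeR adjusted p 5.41e-07 to 9.65e-06). Slc6a12 (BGT1) carries betaine and GABA. Slc6a12 was at 118, 164 and 132 CPM in hepatocytes, at 17.8, 9.55 and 11.2 in HM-Wnt at 1 week and at 20.5, 19.4 and 8.82 at 2 weeks. MM values of Slc6a12 were 37.9, 32.4 and 17.1 at 1 week and 44.9, 48.3 and 22.8 at 2 weeks. Here too no HepOrg library reached the hepatocytes, and replicate 3 was the lowest in 3 of the 4 HepOrg groups. Log2 fold changes of Slc6a12 were -3.46 and -3.12 in HM-Wnt and -2.25 and -1.81 in MM (standard errors 0.40 to 0.43, edgeR adjusted p 3.20e-05 to 0.00321).

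Slc1a2 (GLT-1) is a high-affinity glutamate carrier best known from astrocytes, and in liver it is known from hepatocytes around the central vein. Slc1a2 was at 44.3, 104 and 38.1 CPM in hepatocytes, at 25.3, 11.4 and 13.5 in HM-Wnt at 1 week and at 9.301, 6.19 and 3.32 at 2 weeks. MM values of Slc1a2 were 1.03, 1.37 and 0.932 at 1 week and 0.207, 0.136 and 0.424 at 2 weeks. The levels stepped down from hepatocytes to HM-Wnt and again to MM, with no overlap between hepatocytes and either medium. Log2 fold changes were -1.93 and -3.33 in HM-Wnt and -5.76 and -7.68 in MM (standard errors 0.46 to 0.62, edgeR adjusted p 1.31e-06 to 0.00388). Slc43a3, the nucleobase transporter, was the last of the 7. Slc43a3 stood at 15.1, 24.99 and 28.5 CPM in hepatocytes, at 2.24, 2.32 and 2.46 in HM-Wnt at 1 week and at 1.56, 1.73 and 1.39 at 2 weeks. MM values of Slc43a3 were 7.14, 3.42 and 1.76 at 1 week and 0.8296, 3.73 and 7.27 at 2 weeks. Its values in MM scattered more than in HM-Wnt but stayed below hepatocytes, with log2 fold changes of -3.31 and -3.86 in HM-Wnt and -2.47 and -2.53 in MM (standard errors 0.60 to 0.65, edgeR adjusted p 2.75e-04 to 0.0054). Endothelial marker sums were lower in every HepOrg library than in every hepatocyte library. Immune marker sums overlapped, and MM replicate 3 at 2 weeks, with the highest Slc43a3 of its group, had an immune sum of 789.8 CPM. Their part in the result for Slc43a3 was not tested. None of the calls of these 7 genes was lost when any 1 library was left out. In the fit of all 27 libraries together, with similar fold changes, the calls of Slc38a3 (-2.39 to -2.64) and Slc6a13 (-2.09 to -2.82) were lost in all 4 comparisons. Slc6a12 lost 3 (-1.83 to -3.08), Slc43a3 both in MM (-2.46 and -2.52) and Slc1a2 that in HM-Wnt at 1 week (-1.89).

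**Figure D3:**
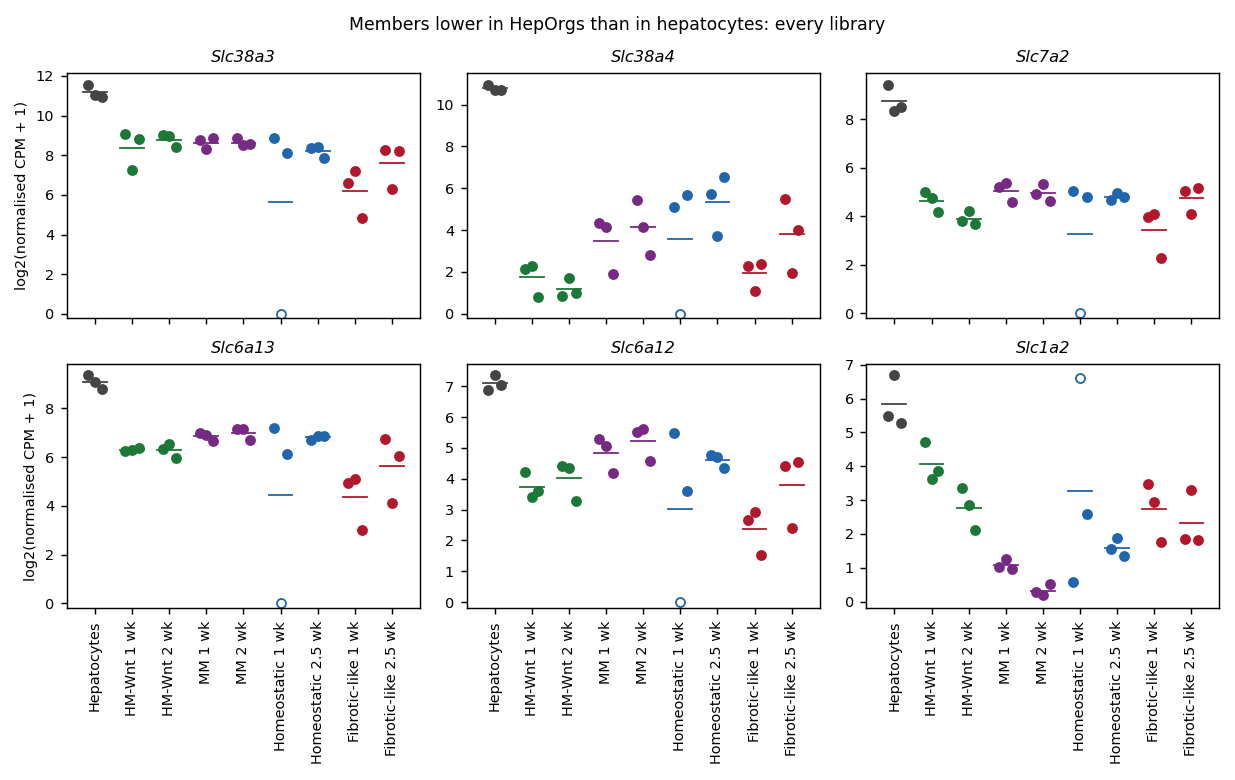
Each panel plots log2(normalised CPM + 1) of 1 gene in all 27 libraries by condition, with a line at the condition mean and an open symbol for homeostatic replicate 2 at 1 week. Hepatocyte libraries lie above every HepOrg library in each panel. Of the 7 genes lower in all 4 comparisons, Slc43a3 has no panel.

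The genes higher in all 4 comparisons held a heavy chain, 3 of its exchanger partners, 2 cationic carriers, and carriers of alanine, serine, glutamine and creatine. Slc3a2 (CD98hc, ENSMUSG00000010095) is the heavy chain that brings the exchangers to the surface. Slc3a2 was at 111, 75.02 and 105 CPM in hepatocytes, at 568, 543 and 574 in HM-Wnt at 1 week and at 607, 605 and 486 at 2 weeks. MM values of Slc3a2 were 542, 321 and 721 at 1 week and 536, 512 and 650.1 at 2 weeks. Every HepOrg library was above every hepatocyte library, and the log2 fold changes were 2.48 and 2.50 in HM-Wnt and 2.42 and 2.55 in MM (standard errors 0.26, edgeR adjusted p 5.50e-06 to 1.07e-05). Among its light chains, Slc7a5 (LAT1) exchanges large neutral amino acids such as leucine for glutamine. Slc7a5 was at 0.586, 0.7003 and 0.792 CPM in hepatocytes, at 9.52, 7.44 and 9.63 in HM-Wnt at 1 week and at 15.3, 9.28 and 14.9 at 2 weeks. MM values of Slc7a5 were 5.53, 4.799 and 6.2997 at 1 week and 3.396, 5.66 and 5.202 at 2 weeks. No library overlapped, and HM-Wnt was above MM in every library at both times. Its log2 fold changes were 3.54 and 4.11 in HM-Wnt and 2.89 and 2.699 in MM (standard errors 0.27 to 0.28, edgeR adjusted p 2.34e-07 to 6.91e-06). Slc7a6 (y+LAT2) exchanges arginine for glutamine with sodium. Slc7a6 was at 0.293, 0.525 and 0.365 CPM in hepatocytes, at 15.2, 14.7 and 12.1 in HM-Wnt at 1 week and at 12.7, 14.4 and 14.5 at 2 weeks. MM values of Slc7a6 were 7.77, 6.44 and 10.4 at 1 week and 5.11, 3.55 and 6.08 at 2 weeks. Hepatocytes were all under 1 CPM and HepOrgs all above 3, with log2 fold changes of 4.95 and 4.95 in HM-Wnt and 4.21 and 3.51 in MM (standard errors 0.27 to 0.28, edgeR adjusted p 6.66e-08 to 8.79e-07). Slc7a7 (y+LAT1) is the related exchanger that is lost in lysinuric protein intolerance. Slc7a7 was at 3.81, 5.78 and 3.59 CPM in hepatocytes, at 15.1, 15.4 and 13.005 in HM-Wnt at 1 week and at 13.01, 14.2 and 11.7 at 2 weeks. MM values of Slc7a7 were 18.4, 14.7 and 12.2 at 1 week and 18.4, 15.8 and 11.99 at 2 weeks. Its HepOrg libraries lay close together across media and times, and log2 fold changes were 1.67 and 1.52 in HM-Wnt and 1.76 and 1.82 in MM (standard errors 0.24, edgeR adjusted p 6.75e-05 to 1.62e-04). The deposited values say nothing of protein or of pairing between chains.

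Of the cationic carriers, Slc7a1 (CAT1) is the widely expressed one that most cells other than hepatocytes use. Slc7a1 was at 0.266, 0.394 and 0 CPM in hepatocytes, at 5.84, 4.47 and 3.35 in HM-Wnt at 1 week and at 5.87, 5.98 and 6.46 at 2 weeks. MM values of Slc7a1 were 4.27, 3.29 and 7.23 at 1 week and 2.7999, 3.17 and 5.23 at 2 weeks. The hepatocyte libraries were all under 0.4 CPM and no HepOrg library was under 2, giving log2 fold changes of 4.08 and 4.51 in HM-Wnt and 4.21 and 3.84 in MM (standard errors 0.62 to 0.63, edgeR adjusted p 6.70e-05 to 3.18e-04). Slc7a3 (CAT3), known mainly from brain, had no read in any hepatocyte library, where a count of 0 allows up to 3 counts per library, or 0.101 CPM. Slc7a3 was then at 0, 0 and 0 CPM in hepatocytes, at 21.9, 14.2 and 31.95 in HM-Wnt at 1 week and at 21.2, 19.4 and 20.4 at 2 weeks. MM values of Slc7a3 were 4.82, 2.24 and 16.1 at 1 week and 6.46, 5.5002 and 33.7 at 2 weeks. Every HepOrg library was above that limit, with replicate 3 highest in both MM groups. Against it, Slc7a3 was at least 225-fold higher in HM-Wnt at 1 week, 202-fold at 2 weeks, 76.4-fold in MM at 1 week and 151-fold at 2 weeks. The cationic carriers thus went in opposite directions, Slc7a2 down and Slc7a1 and Slc7a3 up.

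Slc38a1 (SNAT1) is the system A carrier of glutamine in many growing and neural cells. Slc38a1 was at 0.213, 1.14 and 0.518 CPM in hepatocytes, at 55.4, 52.1 and 60.9 in HM-Wnt at 1 week and at 84.9, 75.8 and 60.96 at 2 weeks. MM values of Slc38a1 were 36.3, 51.8 and 111 at 1 week and 23.9, 41.7 and 43.001 at 2 weeks. All HepOrg libraries were above 20 CPM and all hepatocyte libraries at or below 1.14, with log2 fold changes of 6.41 and 6.82 in HM-Wnt and 6.67 and 5.83 in MM (standard errors 0.53 to 0.55, edgeR adjusted p 7.39e-07 to 3.37e-06). Slc1a4 (ASCT1) carries alanine, serine and cysteine. Slc1a4 was at 4.63, 10.9 and 6.33 CPM in hepatocytes, at 187, 97.5 and 184 in HM-Wnt at 1 week and at 195, 136 and 139.7 at 2 weeks. MM values of Slc1a4 were 101, 108 and 242 at 1 week and 44.1, 40.9 and 85.5 at 2 weeks. It did not overlap either and was lowest among HepOrgs in MM at 2 weeks. Its log2 fold changes were 4.38 and 4.39 in HM-Wnt and 4.33 and 2.96 in MM (standard errors 0.44 to 0.47, edgeR adjusted p 7.30e-06 to 1.77e-04). Slc6a8 is the creatine transporter. Slc6a8 was at 2.34, 3.11 and 1.64 CPM in hepatocytes, at 14.2, 18.4 and 19.6 in HM-Wnt at 1 week and at 18.6, 18.3 and 22.003 at 2 weeks. MM values of Slc6a8 were 15.9, 13.8 and 21.9 at 1 week and 15.4, 17.1 and 20.8 at 2 weeks. Log2 fold changes of Slc6a8 were 2.81 and 3.00 in HM-Wnt and 2.82 and 2.90 in MM (standard errors 0.24, edgeR adjusted p 7.70e-07 to 1.88e-06), and no HepOrg library was near a hepatocyte one. Every call of the 9 genes held when any 1 library was left out, and in the fit of all 27 libraries only that of Slc1a4 in MM at 2 weeks was lost (2.96). Cholangiocyte marker sums were also higher in every HepOrg library than in every hepatocyte library, and their part in these 9 results was not tested.

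**Figure D4:**
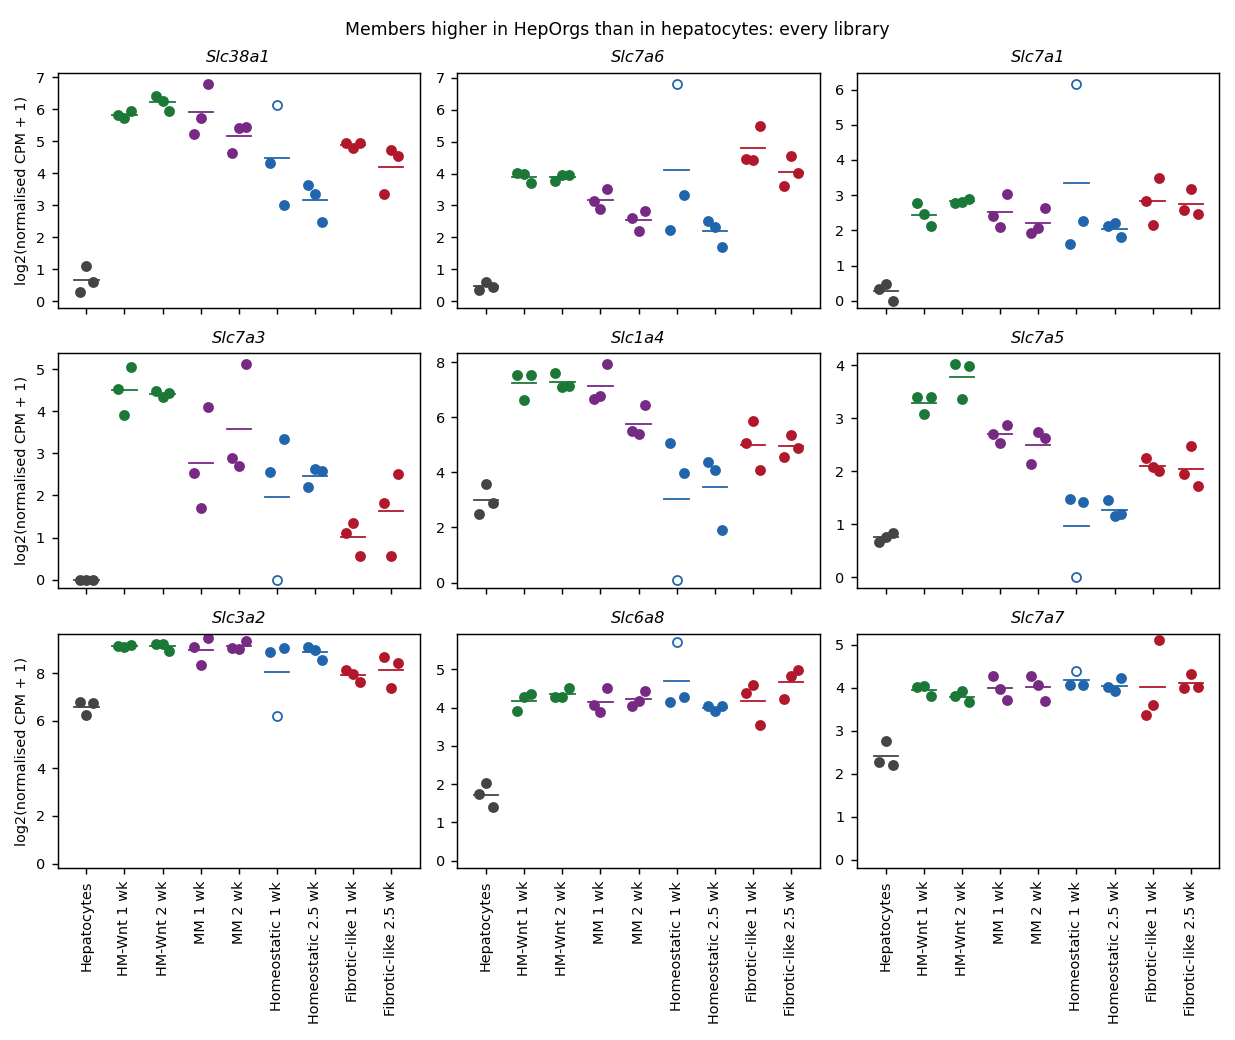
Each panel plots log2(normalised CPM + 1) of 1 gene in all 27 libraries by condition, with a line at the condition mean and an open symbol for homeostatic replicate 2 at 1 week. The 3 hepatocyte libraries lie below every HepOrg library in each of the 9 panels.

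The remaining genes past the threshold passed in some of the comparisons only, mostly with smaller changes. Slc1a5 (ASCT2), a sodium-dependent exchanger of glutamine, was the largest riser among them. Slc1a5 was at 1.28, 2.23 and 1.4004 CPM in hepatocytes, at 7.61, 5.38 and 7.73 in HM-Wnt at 1 week and at 8.29, 9.83 and 13.7 at 2 weeks. MM values of Slc1a5 were 3.13, 4.31 and 9.03 at 1 week and 0.985, 2.54 and 3.42 at 2 weeks. HepOrgs did not overlap hepatocytes except in MM at 2 weeks, where the log2 difference came to 0.49 (standard error 0.44, edgeR adjusted p 0.396). In HM-Wnt it was 2.01 and 2.63, and in MM at 1 week 1.69. Each of these 3 calls was lost in 1 of the 13 alternative fits. Slc6a16, an orphan of the Slc6 family, was at 4.85, 1.01 and 3.81 CPM in hepatocytes and at 0 to 0.75 in HepOrgs, and fell in 3 of 4 comparisons (-4.64, -4.79 and -3.31, then -2.33 in MM at 2 weeks with edgeR adjusted p 0.0646). Slc7a8 (LAT2), a neutral exchanger, was at 0.799, 4.95 and 2.07 CPM in hepatocytes and at 0 to 0.853 in HepOrgs. It fell in HM-Wnt (-2.74 and -3.82) and in MM at 1 week (-3.52), but not in MM at 2 weeks (-2.65, edgeR adjusted p 0.0583). Its highest hepatocyte value was in replicate 2, as were the endothelial and immune marker sums, and their part in it was not tested. The call of Slc7a8 was lost in HM-Wnt at 1 week without replicate 1 (-2.57) or 2 (-2.46) or 3 (-3.31) of HM-Wnt at 1 week or replicate 2 (-1.90) or 3 (-2.86) of the hepatocytes, and in MM at 1 week without replicate 2 (-3.25) or 3 (-3.20) of MM at 1 week or replicate 2 (-2.701) of the hepatocytes.

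The lysosomal carrier Slc36a1 (PAT1) exports small amino acids with protons. Slc36a1 was at 11.5, 14.9 and 12.1 CPM in hepatocytes, at 9.87, 10.7 and 9.22 in HM-Wnt at 1 week and at 7.13, 8.42 and 6.75 at 2 weeks. MM values of Slc36a1 were 10.3, 9.301 and 7.05 at 1 week and 9.96, 10.2 and 8.68 at 2 weeks. The change passed the threshold as a fall in HM-Wnt at 2 weeks (-0.82) and in MM at 1 week (-0.54, reversed to 0.04 and 0.06 on the log2(TPM + 1) and log2(TPM + 0.1) scales). Slc36a4 (PAT4) is a related carrier. Slc36a4 was at 9.96, 10.1 and 9.92 CPM in hepatocytes, at 17.9, 14.5 and 12.5 in HM-Wnt at 1 week and at 16.2, 15.7 and 11.9 at 2 weeks. MM values of Slc36a4 were 11.7, 9.11 and 13.1 at 1 week and 12.4, 10.2 and 12.02 at 2 weeks. Both HM-Wnt groups were above hepatocytes in every library, by 0.54 and 0.51. Slc38a7 is a lysosomal carrier of glutamine and asparagine. Slc38a7 was at 46.4, 34.4 and 31.02 CPM in hepatocytes, at 26.8, 14.7 and 22.9 in HM-Wnt at 1 week and at 26.8, 26.7 and 24.5 at 2 weeks. MM values of Slc38a7 were 29.6, 25.7 and 26.3 at 1 week and 30.05, 30.4 and 24.8 at 2 weeks. It fell in HM-Wnt at 1 week (-0.84) and at 2 weeks (-0.56, reversed to 0.26 and 0.28 on the log2 TPM scales). Slc38a9, which couples lysosomal arginine to mTORC1, ranged over 2.91 to 18.2 CPM and passed in none of the 4 (0.30, 0.08, 0.09 and -0.20). Slc38a6 was at 2.18, 2.71 and 2.68 CPM in hepatocytes and passed in HM-Wnt and MM at 2 weeks (-0.91 and -0.91).

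Slc6a9 (GLYT1), the glycine carrier, passed once. Slc6a9 was at 22.5, 11.2 and 5.24 CPM in hepatocytes, at 25.1, 3.49 and 18.1 in HM-Wnt at 1 week and at 28.3, 18.6 and 25.2 at 2 weeks. MM values of Slc6a9 were 35.8, 23.9 and 43.6 at 1 week and 37.3, 31.7 and 43.2 at 2 weeks. Hepatocyte replicates were far apart and overlapped HM-Wnt, while MM at 2 weeks was above all 3 of them, by 1.53 (standard error 0.58, edgeR adjusted p 0.0496). Slc6a6 is the taurine transporter. Slc6a6 was at 227, 111 and 107 CPM in hepatocytes, at 98.8, 63.9 and 94.8 in HM-Wnt at 1 week and at 137, 94.4 and 114 at 2 weeks. MM values of Slc6a6 were 104, 107 and 84.8 at 1 week and 99.2, 97.03 and 88.9 at 2 weeks. Its hepatocyte replicate 1 was well above the other two, and it passed only in HM-Wnt at 1 week, by -0.83. Slc43a1 (LAT3) carries leucine and other neutral amino acids by facilitated diffusion. Slc43a1 was at 13.2, 21.4 and 12.3 CPM in hepatocytes, at 13.8, 5.29 and 9.18 in HM-Wnt at 1 week and at 12.5, 13.7 and 7.97 at 2 weeks. MM values of Slc43a1 were 5.84, 6.61 and 10.2 at 1 week and 4.98, 4.35 and 4.35 at 2 weeks. It passed in MM at 1 week (-1.07) and at 2 weeks (-1.75), and HM-Wnt overlapped hepatocytes.

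For Slc7a15 no role is given here. Slc7a15 was at 31.001, 27.7 and 22.2 CPM in hepatocytes, at 26.3, 21.6 and 18.6 in HM-Wnt at 1 week and at 21.9, 18.4 and 15.4 at 2 weeks. MM values of Slc7a15 were 23.9, 26.9 and 19.4 at 1 week and 17.99, 16.5 and 18.7 at 2 weeks. It passed in HM-Wnt at 2 weeks (-0.57, reversed to 0.16 and 0.23 on the log2 TPM scales) and in MM at 2 weeks (-0.59). Slc1a1 (EAAT3), the glutamate carrier of kidney and neurons, ranged over 1.46 to 4.74 CPM and passed in HM-Wnt at 2 weeks (0.81).

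Many of these smaller calls lay near the threshold and were lost, often at a similar fold change, when any of several libraries was left out. For Slc36a1 in MM at 1 week the call was lost without replicate 2 (-0.58) or 3 (-0.37) of MM at 1 week or replicate 2 (-0.43) or 3 (-0.56) of the hepatocytes. For Slc36a4 it was lost in HM-Wnt at 1 week without replicate 1 (0.39) of HM-Wnt at 1 week or replicate 1 (0.55) or 2 (0.55) or 3 (0.55) of the hepatocytes, and at 2 weeks without replicate 1 (0.43) or 2 (0.45) of HM-Wnt at 2 weeks or replicate 1 (0.52) or 2 (0.52) or 3 (0.51) of the hepatocytes. Slc38a7 lost its call in HM-Wnt at 2 weeks without replicate 1 (-0.58) or 2 (-0.59) or 3 (-0.50) of HM-Wnt at 2 weeks or replicate 1 (-0.36) or 2 (-0.61) of the hepatocytes. Slc38a6 lost it in HM-Wnt at 2 weeks without replicate 1 (-0.88) or 2 (-0.83) of HM-Wnt at 2 weeks or replicate 2 (-0.85) or 3 (-0.86) of the hepatocytes, and in MM at 2 weeks without replicate 1 (-1.01) or 2 (-0.74) or 3 (-0.98) of MM at 2 weeks or replicate 2 (-0.85) or 3 (-0.84) of the hepatocytes. Slc6a9 lost its call in MM at 2 weeks without replicate 1 (1.52) or 2 (1.63) or 3 (1.46) of MM at 2 weeks or replicate 2 (1.44) or 3 (1.18) of the hepatocytes, and Slc6a6 in HM-Wnt at 1 week without replicate 2 (-0.65) of HM-Wnt at 1 week or replicate 1 (-0.37) of the hepatocytes. Slc43a1 in MM at 1 week lost its call without replicate 1 (-0.91) or 2 (-0.98) of MM at 1 week or replicate 2 (-0.78) of the hepatocytes. Slc7a15 lost it in HM-Wnt at 2 weeks without replicate 2 (-0.57) or 3 (-0.44) of HM-Wnt at 2 weeks or replicate 1 (-0.45) or 2 (-0.55) of the hepatocytes, and in MM without replicate 1 (-0.61) or 2 (-0.55) or 3 (-0.58) of MM at 2 weeks or replicate 1 (-0.45) or 2 (-0.56) of the hepatocytes. Slc1a1 lost its call without replicate 2 (0.87) or 3 (0.65) of HM-Wnt at 2 weeks or replicate 1 (0.61) of the hepatocytes.

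Slc38a2 (SNAT2), which cells raise when amino acids run short, did not pass in any of the 4 comparisons. Slc38a2 was at 269.7, 81.6 and 124 CPM in hepatocytes, at 222, 146 and 181 in HM-Wnt at 1 week and at 225, 209.7 and 157 at 2 weeks. MM values of Slc38a2 were 129, 129.8 and 139.6 at 1 week and 136, 114 and 112 at 2 weeks. Hepatocyte replicate 1 was the highest of all, replicate 2 the lowest, and the log2 fold changes of Slc38a2 were 0.16 and 0.28 in HM-Wnt and -0.28 and -0.38 in MM (standard errors 0.33, edgeR adjusted p 0.388 to 0.707). Slc3a1 (rBAT), the heavy chain of the cystine carrier of kidney, ranged over 0.205 to 175 CPM and did not pass either (-0.47, -1.19, -0.23 and 0.00). Slc38a10 (51.03 to 218 CPM) and Slc43a2 (LAT4, 1.54 to 70.02 CPM) had log2 fold changes of -0.08 to 0.68 and -0.84 to -0.13, none past the threshold. The standard error of Slc43a2 was 0.74 in each comparison, and even its change of -0.84 did not pass. Changes of about this size could therefore not be detected in it.

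Some of these genes are neighbours on the chromosome, which allows a comparison within 1 locus. On GRCm39 chromosome 15, Slc38a1 (chr15:96469298-96541851), Slc38a2 (chr15:96585266-96597894) and Slc38a4 (chr15:96892693-96958593) lie in a row on the minus strand with gaps of 43.4 and 295 kb. They did not move together. Slc38a1 was higher in all 4 comparisons, Slc38a2 passed in none, and Slc38a4 was lower in all 4. On chromosome 6, Slc6a13 (chr6:121277186-121316121) and Slc6a12 (chr6:121320035-121342734) lie 3.91 kb apart on the plus strand, and both were lower in all 4.

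Genes that work beside the transporters were described from 3 lists. In the list of amino acid response genes, which cells switch on when amino acids are scarce or protein folding fails, 23 were tested, and 17, 19, 15 and 17 were higher in HM-Wnt at 1 and 2 weeks and in MM at 1 and 2 weeks. In the same order 2, 2, 1 and 1 were lower, and the median log2 fold changes were 2.75, 3.02, 2.89 and 3.13. Of all tested genes, 24.9, 26.1, 21.5 and 19.7% were higher and 24.8, 25.7, 21.3 and 20% lower in these comparisons. Psat1 (7.70, 7.77, 6.96 and 7.17) and Phgdh (7.29, 7.75, 6.68 and 6.67), which make serine, rose most among those with reads in hepatocytes. The regulator of the programme, Atf4, did not pass at the RNA level (0.33, 0.71, 0.22 and 0.48). Asns, which makes asparagine, was at 1.3, 110 and 1.5 CPM in hepatocytes, so 1 of the 3 libraries was already high, and it passed in 3 of 4 comparisons (3.12, 3.02, 3.07 and 3.36). For Slc3a2, Slc7a5 and Slc38a2, hepatocyte replicate 2 was not the highest of the 3. It was the highest for Slc38a1, Slc1a4, Slc1a5, Slc7a1, Slc7a6, Slc7a7 and Slc6a8. With Stc2, which had no read in hepatocytes, at its lower bound, the medians of the list are the same.

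Of 21 tested enzymes of amino acid breakdown, urea synthesis and glutamine handling, 17, 19, 18 and 18 were lower and 1 was higher each time, with medians of -3.92, -3.85, -3.27 and -3.28, beside the same 24.8, 25.7, 21.3 and 20% lower among all genes. Those lower included Cps1 (-7.19, -7.92, -9.13 and -8.84) and Arg1 (-7.49, -9.29, -4.89 and -4.35), the enzymes that open and close the urea cycle. Of 12 tested amino acid carriers outside the 7 families, 2, 1, 1 and 1 were higher and 7, 9, 7 and 9 lower, with medians of -1.22, -1.53, -1.27 and -1.77. The lists were not tested as groups. Among them the mitochondrial ornithine carrier Slc25a15 fell (-3.11, -3.11, -2.87 and -2.61) and the aspartate-glutamate carrier Slc25a12 rose (0.91, 1.11, 0.89 and 0.76).

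The change of medium from HM-Wnt to MM moved fewer transporter genes. At 1 week 1 of 36 tested genes passed (lower), beside 2.98% of all 12989 genes (1.22% lower), a share near the background. At 2 weeks 9 passed, 3 higher and 6 lower, beside 11.5% of all genes (6.84% higher and 4.61% lower). For the mean of both times 10 passed, 4 higher and 6 lower, beside 21.5% (11.5% and 10%). Replicate numbers pair the HepOrg libraries, and with the replicate number as a block the counts were 6 of 36 at 1 week (3 in each direction, beside 9.48% of all genes) and 14 at 2 weeks (6 higher and 8 lower, beside 19.6%). For the mean of both times the block gave 15 (7 higher and 8 lower, beside 28.9%). Left-out libraries moved the counts too. At 2 weeks 4 genes passed without replicate 1 or 2 of MM at 2 weeks or without replicate 1 of HM-Wnt at 2 weeks, and at 1 week 2 passed without replicate 3 of MM at 1 week.

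Slc1a2, the glutamate carrier, showed the clearest effect of the medium. It fell by 3.85 on the log2 scale at 1 week and by 4.34 at 2 weeks, and the mean effect was -4.10 (standard error 0.35, edgeR adjusted p 7.08e-05). All 6 MM libraries were below all 6 HM-Wnt libraries. The other 5 genes lower at 2 weeks were carriers of neutral amino acids, glutamine or arginine. They were Slc7a6 (-1.43), Slc7a5 (-1.40), Slc1a5 (-2.12), Slc1a4 (-1.42) and Slc43a1 (-1.25), each without overlap between the media. Slc38a4 was higher in MM at 2 weeks (4.01), as were Slc7a2 (1.19) and Slc6a13 (0.79). Even so, MM libraries stayed well below hepatocytes for all 3. Slc6a12 passed for the mean of both times (1.25), and Slc38a2 was lower by the same measure (-0.55).

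With the block, Slc38a4 (2.17), Slc6a13 (0.56) and Slc6a12 (1.10) also passed as higher at 1 week, and Slc7a3 (-1.86) and Slc7a6 (-0.78) as lower. At 2 weeks it added Slc6a12 (1.33), Slc3a1 (1.23) and Slc6a16 (2.67) as higher, and Slc38a1 (-1.04) and Slc38a2 (-0.65) as lower. For the mean it added Slc1a4 (-0.79), Slc7a3 (-1.40), Slc3a1 (0.71), Slc6a16 (1.90) and Slc6a9 (1.02). Slc3a1 shows what the block does, since its replicate 3 was the lowest library in each HepOrg group.

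Several calls at 2 weeks were also lost with 1 library fewer, most at a similar fold change. Slc1a4 was not past the threshold without replicate 1 (-1.29) or 2 (-1.26) of MM at 2 weeks or replicate 1 (-1.23) or 2 (-1.51) or 3 (-1.50) of HM-Wnt at 2 weeks. For Slc1a5 this was so without replicate 2 (-2.23) of MM at 2 weeks, and for Slc38a4 without replicate 1 (3.07) of MM at 2 weeks or replicate 1 (3.75) or 3 (3.83) of HM-Wnt at 2 weeks. The call of Slc43a1 was lost without replicate 1 (-1.35) or 2 (-1.25) or 3 (-1.20) of MM at 2 weeks or replicate 1 (-1.18) or 2 (-1.09) of HM-Wnt at 2 weeks. Slc6a13 lost it without replicate 1 (0.68) or 2 (0.69) of MM at 2 weeks or replicate 1 (0.82) or 3 (0.64) of HM-Wnt at 2 weeks, and Slc7a2 without replicate 1 (1.20) or 2 (0.94) of MM at 2 weeks or replicate 1 (1.13) or 3 (1.07) of HM-Wnt at 2 weeks. For the mean of both times, Slc7a2 lost its call without replicate 2 (0.72) of MM at 1 week or replicate 2 (0.70) of MM at 2 weeks, and Slc43a1 without replicate 1 (-0.72) or 2 (-0.75) of MM at 1 week, replicate 1 (-0.83) or 2 (-0.78) or 3 (-0.76) of MM at 2 weeks, replicate 1 (-0.59) or 3 (-0.80) of HM-Wnt at 1 week or replicate 1 (-0.75) or 2 (-0.71) of HM-Wnt at 2 weeks. Slc1a2, Slc7a5 and Slc7a6 kept theirs in each case.

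Whether the effect of the medium differed between 2 weeks and 1 week was tested directly. None of the 36 genes passed (0 of 36 with edgeR and 0 with DESeq2, and 0 on the log2(TPM + 1) scale), with 4 at an unadjusted p under 0.05 in edgeR, where 0% of all genes passed. The larger count at 2 weeks is therefore not shown to be a difference between the times. In the 3 lists, 3 response genes were higher in MM for the mean of both times and 4 lower, of 23. Of the enzymes 6 were higher and 1 lower of 20, and of the outside carriers 1 was higher and 2 lower of 12, beside 11.5% higher and 10% lower among all genes.

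Assembloids were compared to see how mesenchymal cell number changes the mixed tissue. With all 12 libraries, none of 42 tested transporter genes passed in any of 6 comparisons, and neither did any of the 14253 genes (0%). At an unadjusted p under 0.05, edgeR gave 3, 5 and 5 transporter genes for fibrotic-like against homeostatic at 1 week, at 2.5 weeks and for the mean, 0 for the change between times, and 7 and 1 for time within homeostatic and within fibrotic-like assembloids. Counts at an unadjusted p were not taken over all genes in any comparison. DESeq2 gave 3, 2 and 5 past the threshold, all higher, for the first 3 and 0 for the others. Among all genes, DESeq2 called 622 higher and 169 lower, 285 and 2, and 1384 and 340 in those 3. On log2(TPM + 1), limma gave 2, 0 and 4, all higher, and then 0. Among all genes, limma called 733 higher and 2 lower, 0 and 0, and 1392 and 7 in the same 3. In edgeR the library that stood apart decided the result. Without it 46 genes were tested. At 1 week 3 passed, 2 higher and 1 lower, beside 8.01% of all 14746 genes (3.14% higher and 4.87% lower). For the mean of both times 17 passed, 11 higher and 6 lower, beside 29.7% (16.2% and 13.4%), with a median of 0.05 where all genes had 0.12. At 2.5 weeks alone none passed in edgeR (12 at an unadjusted p under 0.05), beside 0.258% of all genes. The other 3 comparisons still gave 0, with 1, 2 and 6 at an unadjusted p under 0.05.

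The log2 fold changes that follow are fibrotic-like over homeostatic, mean of both times, without homeostatic replicate 2 at 1 week (± standard error), and each passed in edgeR unless said otherwise. Their edgeR adjusted p were 0.00928 to 0.0437, and over all alternatives tried for the same genes 1.52e-05 to 1. Slc1a5, the glutamine exchanger, rose by 3.19 ± 0.58. Slc1a5 was at 0.799, 76.4 and 3.32 CPM in homeostatic assembloids at 1 week, 1.52, 2.89 and 2.09 at 2.5 weeks, 18.1, 13.2 and 33.5 in fibrotic-like assembloids at 1 week and 9.22, 39.7 and 8.59 at 2.5 weeks. Without the library that stood apart, every fibrotic-like library was above every homeostatic one. Slc7a6 rose by 2.10 ± 0.36. Slc7a6 was at 3.66, 112 and 9.07 CPM in homeostatic assembloids at 1 week, 4.75, 4.04 and 2.27 at 2.5 weeks, 20.8, 20.6 and 44.2 in fibrotic-like assembloids at 1 week and 11.3, 22.6 and 15.1 at 2.5 weeks. It did not overlap either without that library, which by itself held the highest value. At 1 week Slc1a5 (3.31) and Slc7a6 (2.11) passed as higher. With all 12 libraries their values at 1 week were -0.37 and -0.60, and those for the mean of both times 1.35 and 0.75, none past the threshold. Fibrotic-like replicate 3 at 1 week held the highest Slc7a6 and the second highest Slc1a5 of the 6 fibrotic-like libraries. Its mesenchyme marker sum was 316 CPM against 2719 and 6605 in its group. The cholangiocyte marker sum was 7435 CPM against 10757 and 10530, and the hepatocyte marker sum 1667 against 10650 and 14958. The part of the cell mixture in these values was not tested.

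Slc43a3 rose by 3.24 ± 0.63. Slc43a3 was at 1.102, 0 and 7.73 CPM in homeostatic assembloids at 1 week, 2.54, 3.88 and 2.27 at 2.5 weeks, 29.1, 56.1 and 7.89 in fibrotic-like assembloids at 1 week and 28.4, 34.1 and 56.5 at 2.5 weeks. Its order over the 6 fibrotic-like libraries put replicate 3 at 1 week lowest, and that library was also lowest in the mesenchyme marker sum. Those sums were 2719, 6605 and 316 CPM at 1 week and 1409.6, 4632 and 5119.9 at 2.5 weeks, and their part in the result was not tested. The noradrenaline transporter Slc6a2 had no read in any homeostatic library. It was at 0.658, 5.32 and 0 CPM in fibrotic-like assembloids at 1 week and 0.374, 3.23 and 2.76 at 2.5 weeks. Against a limit of 3 counts per library, it was thus at least 30.6-fold higher at 2.5 weeks. Slc6a2 did not pass in edgeR at 2.5 weeks alone, and passed for the mean of both times. It too was at 0 in the library low in mesenchyme markers.

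Among the other exchangers, Slc7a5 rose by 1.00 ± 0.27. Slc7a5 was at 1.79, 0 and 1.69 CPM in homeostatic assembloids at 1 week, 1.75, 1.23 and 1.29 at 2.5 weeks, 3.75, 3.21 and 3.02 in fibrotic-like assembloids at 1 week and 2.87, 4.56 and 2.33 at 2.5 weeks. The ranges did not overlap. Slc38a1 rose by 1.11 ± 0.36. Slc38a1 was at 18.8, 69.8 and 7.08 CPM in homeostatic assembloids at 1 week, 11.4, 9.24 and 4.55 at 2.5 weeks, 29.6, 26.8 and 29.95 in fibrotic-like assembloids at 1 week and 9.33, 25.4 and 22.2 at 2.5 weeks. Here the ranges of the 2 types overlapped. Slc7a8 (3.03), Slc43a2 (1.40) and Slc38a6 (0.90) also rose. The rarely read Slc36a2 rose as well (2.53), from a homeostatic mean of 0.127 CPM to 0.72 CPM. Slc1a6, a glutamate carrier of cerebellum, completed the 11. It was at 0 to 0.0376 CPM in homeostatic assembloids and at 0.345, 0.799 and 0.192 and 0.208, 0.619 and 0.0159 CPM in fibrotic-like assembloids at 1 and 2.5 weeks.

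Genes that were high in freshly isolated hepatocytes made up part of those that were lower in fibrotic-like assembloids. Slc38a4 had a log2 fold change of -2.57 ± 0.70. Slc38a4 was at 33.6, 0 and 49.9 CPM in homeostatic assembloids at 1 week, 52.3, 12.2 and 90.7 at 2.5 weeks, 3.93, 1.12 and 4.26 in fibrotic-like assembloids at 1 week and 44.1, 2.87 and 14.96 at 2.5 weeks. Fibrotic-like replicate 2 at 2.5 weeks was low beside its group, as was its hepatocyte marker sum (22042, 6912 and 27285 CPM for the 3 replicates). Slc6a12 (-1.63 ± 0.51) and Slc6a13 (-1.56 ± 0.51) were lower as well. Slc6a12 was at 43.7, 0 and 11.05 CPM in homeostatic assembloids at 1 week, 26.4, 25.2 and 19.6 at 2.5 weeks, 5.304, 6.52 and 1.92 in fibrotic-like assembloids at 1 week and 20.4, 4.28 and 22.5 at 2.5 weeks. Slc6a13 was at 146, 0 and 69.7 CPM in homeostatic assembloids at 1 week, 104, 115 and 115 at 2.5 weeks, 29.4, 33.6 and 7.01 in fibrotic-like assembloids at 1 week and 108, 16.2 and 65.5 at 2.5 weeks. In both genes the same library was the lowest of its group, and at 1 week replicate 3 was. Hepatocyte marker sums at 1 week were 10650.1, 14958 and 1667 CPM, lowest in the same replicate, and their part in these falls was not tested.

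Slc6a9 was lower by the same measure (-1.19 ± 0.29) and at 1 week (-1.59). Slc6a9 was at 24.4, 0.0187 and 15.4 CPM in homeostatic assembloids at 1 week, 30.04, 22.4 and 30.4 at 2.5 weeks, 6.899, 9.55 and 4.105 in fibrotic-like assembloids at 1 week and 23.4, 9.63 and 16.4 at 2.5 weeks. Homeostatic libraries other than the one that stood apart were all above 15 CPM. The heavy chain Slc3a2 was lower too (-0.89 ± 0.24). Slc3a2 was at 470.0, 72.4 and 538 CPM in homeostatic assembloids at 1 week, 547, 497 and 377 at 2.5 weeks, 281, 251 and 195 in fibrotic-like assembloids at 1 week and 411, 164 and 340.1 at 2.5 weeks. Its ranges overlapped. Slc7a3 was the last of the 6 (-1.79 ± 0.53). Slc7a3 was at 4.85, 0 and 9.17 CPM in homeostatic assembloids at 1 week, 3.59, 5.15 and 4.94 at 2.5 weeks, 1.15, 1.55 and 0.479 in fibrotic-like assembloids at 1 week and 2.56, 0.469 and 4.65 at 2.5 weeks. Its levels were below 10 CPM throughout the assembloids. With all 12 libraries the mean values of the 6 lower genes were -2.28, -1.34, -1.27, -0.89, -0.65 and -1.50 in the order given here, none past the threshold. On the log2(TPM + 1) and log2(TPM + 0.1) scales with 12 libraries the direction turned for Slc3a2 (0.19 and 0.20) and Slc6a9 (0.014 and 0.39), and on the second scale also for Slc6a13 (0.22) and Slc6a12 (0.11).

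**Figure D5:**
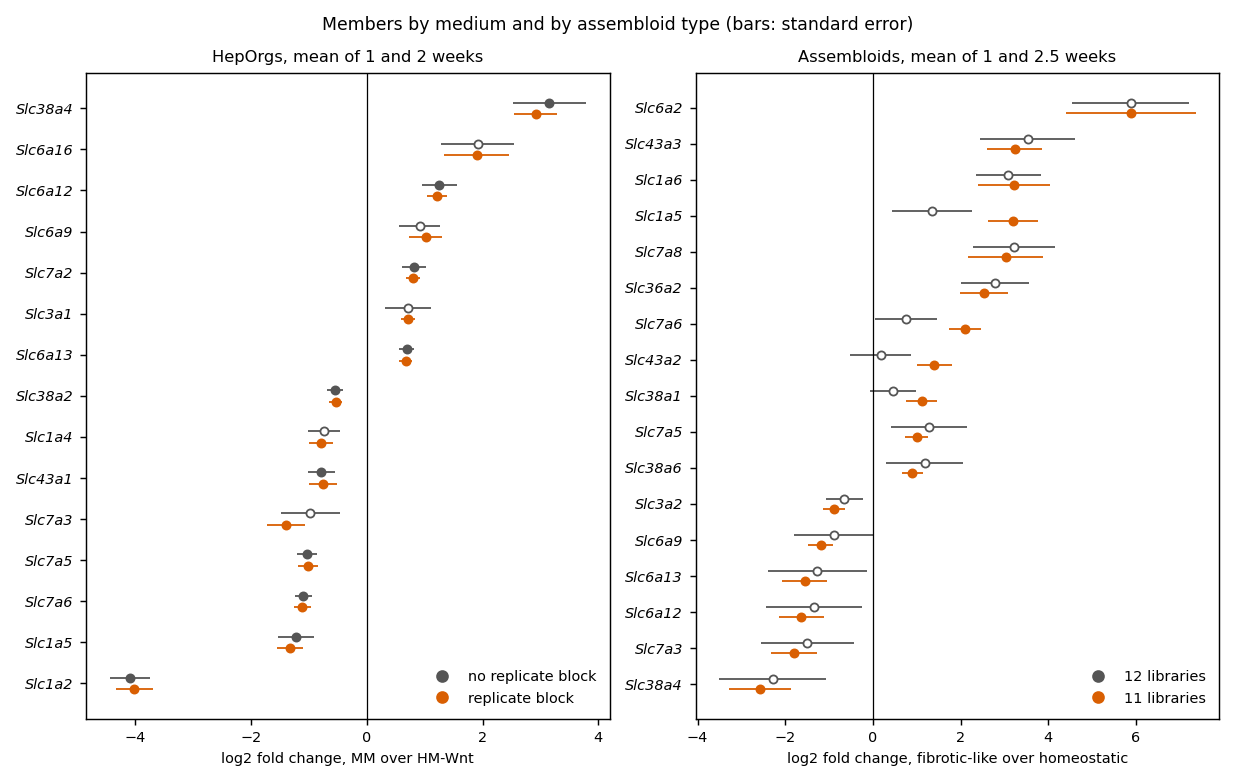
The left panel gives log2 fold changes of MM over HM-Wnt (mean of 1 and 2 weeks) without and with the replicate block, and the right panel those of fibrotic-like over homeostatic assembloids (mean of 1 and 2.5 weeks) with 12 libraries and with 11, leaving out homeostatic replicate 2 at 1 week. Bars are standard errors, filled points passed the threshold, and open points did not. Slc1a2 lies near -4 by medium, all 12-library assembloid points are open, and the fitted values of Slc6a2 and Slc1a6 stand against libraries with no read or hardly any.

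The other genes given in every library did not pass between assembloid types with or without that library. Several were at 0 in it. Slc38a3 was at 463, 0 and 279 CPM in homeostatic assembloids at 1 week, 329, 337 and 231 at 2.5 weeks, 94.98, 146 and 27.6 in fibrotic-like assembloids at 1 week and 309.8, 77.4 and 297 at 2.5 weeks. Its level in fibrotic-like assembloids at 1 week was below that of homeostatic assembloids in the libraries with reads. Slc7a2 was at 31.8, 0 and 26.8 CPM in homeostatic assembloids at 1 week, 24.4, 30.3 and 26.6 at 2.5 weeks, 14.4, 15.8 and 3.89 in fibrotic-like assembloids at 1 week and 31.8, 15.97 and 34.9 at 2.5 weeks. Slc1a4 was at 32.8, 0.05595 and 14.9 CPM in homeostatic assembloids at 1 week, 19.8, 16.2 and 2.78 at 2.5 weeks, 32.8, 56.997 and 15.8 in fibrotic-like assembloids at 1 week and 22.6, 40.5 and 28.7 at 2.5 weeks. Slc38a7 was at 26.9, 0 and 20.04 CPM in homeostatic assembloids at 1 week, 28.9, 29.6 and 24.4 at 2.5 weeks, 24.6, 25.4 and 14.9 in fibrotic-like assembloids at 1 week and 23.9, 18.9 and 22.5 at 2.5 weeks. For these carriers homeostatic replicate 2 was at or near 0. Slc36a1 was at 11.9, 0 and 9.89 CPM in homeostatic assembloids at 1 week, 9.26, 11.4 and 7.36 at 2.5 weeks, 8.82, 10.3 and 6.77 in fibrotic-like assembloids at 1 week and 7.81, 5.91 and 9.402 at 2.5 weeks. Slc36a4 was at 7.2996, 0 and 11.05 CPM in homeostatic assembloids at 1 week, 6.33, 7.18 and 9.75 at 2.5 weeks, 6.37, 9.84 and 5.19 in fibrotic-like assembloids at 1 week and 8.79, 10.9 and 11.2 at 2.5 weeks. Slc43a1 was at 2.01, 0 and 0.564 CPM in homeostatic assembloids at 1 week, 1.07, 1.85 and 0.329 at 2.5 weeks, 1.99, 6.26 and 0.643 in fibrotic-like assembloids at 1 week and 3.59, 3.66 and 5.69 at 2.5 weeks. Apart from that library, Slc36a1 stayed between 5.91 and 11.9 CPM and Slc36a4 between 5.19 and 11.2 CPM.

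A further set was read in every assembloid library. Slc1a2 was at 0.496, 97.2 and 4.98 CPM in homeostatic assembloids at 1 week, 1.93, 2.67 and 1.53 at 2.5 weeks, 10.2, 6.73 and 2.41 in fibrotic-like assembloids at 1 week and 2.64, 8.75 and 2.502 at 2.5 weeks. Slc7a1 was at 2.04, 70.4 and 3.83 CPM in homeostatic assembloids at 1 week, 3.38, 3.61 and 2.51 at 2.5 weeks, 6.14, 3.43 and 10.3 in fibrotic-like assembloids at 1 week and 4.94, 8.01 and 4.51 at 2.5 weeks. Slc6a8 was at 16.6, 51.6 and 18.3 CPM in homeostatic assembloids at 1 week, 15.6, 13.96 and 15.3 at 2.5 weeks, 19.7, 23.1 and 10.7 in fibrotic-like assembloids at 1 week and 17.8, 27.2 and 30.8 at 2.5 weeks. For all 3, homeostatic replicate 2 at 1 week was the highest library. Slc38a2 was at 90.2, 105 and 83.2 CPM in homeostatic assembloids at 1 week, 83.3, 87.6 and 107 at 2.5 weeks, 94.8, 90.2 and 86.7 in fibrotic-like assembloids at 1 week and 95.2, 96.03 and 84.3 at 2.5 weeks. Slc6a6 was at 98.2, 144 and 174 CPM in homeostatic assembloids at 1 week, 100.5, 106 and 136 at 2.5 weeks, 119, 89.2 and 151 in fibrotic-like assembloids at 1 week and 121, 232 and 144 at 2.5 weeks. Slc7a7 was at 15.8, 20.03 and 15.7 CPM in homeostatic assembloids at 1 week, 15.1, 14.1 and 17.7 at 2.5 weeks, 9.27, 11.2 and 33.6 in fibrotic-like assembloids at 1 week and 15.1, 19.1 and 15.3 at 2.5 weeks. Slc38a2 stayed between 83.2 and 107 CPM in all 12 libraries. Slc7a15 was at 19.1, 0.895 and 18.3 CPM in homeostatic assembloids at 1 week, 19.9, 22.2 and 22.6 at 2.5 weeks, 10.5, 14.2 and 3.95 in fibrotic-like assembloids at 1 week and 12.7, 7.06 and 19.98 at 2.5 weeks. In the library that stood apart Slc7a15 was lower than in any other.

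In the lists, and without the same library, 10 of 23 response genes were lower in fibrotic-like assembloids for the mean of both times and 3 higher, with a median of -0.53. Of 22 enzymes 6 were lower and 2 higher (median -0.73), and of 12 outside carriers 5 were lower and none higher (median -0.69), beside 16.2% higher and 13.4% lower among all genes. With all 12 libraries none of these genes passed in edgeR.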

How the data were processed

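Bulk RNA-seq libraries were made by SMARTseq2, which does not keep strand, so overlapping and antisense genes cannot be told apart. Per the study's methods, the authors aligned reads with STAR 2.7.11b to Ensembl release 109 and counted them per gene with featureCounts 2.0.6. The labels give the build GRCm39. The deposited table holds raw counts per gene and TPM values that the authors computed from these counts with the lengths in the table. It holds 37 libraries, of which 27 were used and 10 were not used here. The transporter genes and the gene lists were chosen with earlier results of these data known, and a few further genes, 1 of them of the Slc7 family, are not reported here by name.

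Counts were tested with the quasi-likelihood test of edgeR 4.0.16 (limma 3.58.1, R 4.3.3) after TMM scaling and filterByExpr (minimum count 10, minimum total 15), with p-values adjusted by Benjamini-Hochberg over all tested genes and a threshold of 0.05. The prior count was 2. Separate fits, each with a term for every condition, held the 15 hepatocyte and HepOrg libraries, the 12 HepOrg libraries and the 12 assembloid libraries. Genes with 1 CPM in at least 3 libraries were named with their range. Those with a condition mean of at least 10 CPM that passed in at least 1 comparison were given in every library, and genes below 1 CPM were named with their counts or range. Alternatives were RLE size factors, DESeq2 1.42.0, no filter, a single fit of all 27 libraries, a replicate block, and a fit without each library in turn. The log2(TPM + 1) and log2(TPM + 0.1) scales were tested with limma where 3 libraries or more reached 1 TPM. The fits without homeostatic replicate 2 at 1 week for comparisons that do not use it were chosen after seeing the data. Total counts limit the precision of low genes, and the limit set by a count of 0 (3 counts per library) covers counting error only.

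Among HepOrgs, libraries with the same replicate number deviated together. The correlation of their deviations from the condition means was above 0.1 in 18 of 18 pairs (0.127 to 0.503, median 0.207) and in 2 of 36 pairs with different numbers (median -0.127). The labels do not say what a number shares. The edgeR, DESeq2 and log2(TPM + 1) tests were also run on simulated counts with known changes, for comparisons at 1 week. At a log2 fold change of 2, edgeR recovered 67.2% of them for HM-Wnt against hepatocytes and 79.4% for MM against HM-Wnt. Every simulated library was given the spread of the real ones and none stood apart. Recovery beside a library that stands apart was therefore not simulated. Between assembloid types edgeR recovered 0% with 12 libraries (36.7% at a log2 fold change of 5) and 42.9% with 11. DESeq2 with those 12 recovered 20% and called 93 unchanged genes. The 0 edgeR calls with 12 assembloid libraries thus do not show that these genes were unchanged.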

Additional observations from a re-analysis of the deposited data

How the results depend on the processing

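Numbers of transporter genes past the threshold are given for HM-Wnt at 1 and 2 weeks and MM at 1 and 2 weeks against hepatocytes (22, 25, 21 and 20), for MM against HM-Wnt at 1 week, 2 weeks and the mean (1, 9 and 10), and for fibrotic-like against homeostatic assembloids at 1 week, 2.5 weeks and the mean (0, 0 and 0). With all 27 libraries in 1 fit they were 14, 15, 12 and 11, then 0, 0 and 1, and 1 and 5 for assembloids at 1 week and the mean. Among all genes that fit called 1638 higher and 1255 lower, 1795 and 1453, 1224 and 781, and 1106 and 784 against hepatocytes. The separate fit had called 3341 and 3325 for HM-Wnt at 1 week. Between media the 27-library fit called 0 and 0, 6 and 1, and 52 and 39 of all genes. For assembloids it called 550 and 360 at 1 week and 1569 and 649 for the mean. DESeq2 gave 3 for MM against HM-Wnt at 1 week (771 higher and 607 lower among all genes) and 3, 2 and 5 for assembloids. On log2(TPM + 1) MM against HM-Wnt at 1 week had 0 (256 higher and 77 lower among all genes). Assembloids had 2 at 1 week and 4 for the mean. On log2(TPM + 0.1) MM against HM-Wnt at 1 week had 0 (235 and 60 among all genes), and the assembloid mean had 3 (731 and 4). With the replicate block, MM against HM-Wnt had 6 and 14 at 1 and 2 weeks, beside 9.48% and 19.6% of all genes. In the fit of HepOrgs with hepatocytes, 19 of 30 same-number pairs were above 0.1, beside 7 of 60 with different numbers. Among assembloids 6 of 18 and 5 of 36 were. The block moved no count against hepatocytes by over 1.5 times, and for assembloids it left the counts at 0. The cause of these shifts was not tested.

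Leaving out 1 library gave 20 to 23, 20 to 24, 19 to 24 and 18 to 21 against hepatocytes, 1 to 2, 4 to 9 and 8 to 15 between media, and 0 to 3, 0 to 0 and 0 to 17 between assembloid types, where 3 and 17 are without homeostatic replicate 2 at 1 week. Of 88 called changes against hepatocytes, RLE size factors, DESeq2 and the block kept all 88, the 27-library fit lost 36 and leaving out 1 library lost 57 of 528 calls. Of 20 called between media, RLE, DESeq2, no filter and the block kept all 20, and the 27-library fit lost 19.

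Directions turned as follows. On log2(TPM + 1) and log2(TPM + 0.1), Slc7a15 (0.16 and 0.23) and Slc38a7 (0.26 and 0.28) in HM-Wnt at 2 weeks and Slc36a1 in MM at 1 week (0.0386 and 0.0569) turned up. For assembloids at 1 week the same scales gave Slc1a5 1.56 and 2.29, Slc6a9 0.24 and 1.06 and Slc7a6 1.00 and 1.42, and the block gave Slc1a5 1.30 and Slc7a6 0.27. For the assembloid mean they gave Slc3a2 0.19 and 0.20 and Slc6a9 0.014 and 0.39, and log2(TPM + 0.1) gave Slc6a13 0.22 and Slc6a12 0.11. Leaving out 1 library put Slc1a5 at 1 week between -0.90 and 3.31, Slc7a6 between -1.10 and 2.11, and the mean of Slc43a2 between -0.0885 and 1.40. None of these assembloid values with 12 libraries had passed the threshold. At the depth of these libraries genes under 1 CPM carry few counts, which limits what could be detected in them.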
